A study of Rattus norvegicus with 6 samples.

Results

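Sphingolipids are membrane lipids built on a long-chain base, and the genes of their synthesis, breakdown and signalling were followed in rat sciatic nerve with chronic constriction injury (CCI), in which loose ties around the nerve cause lasting damage and neuropathic pain. The set was a list of 42 symbols, all of which were rows of the deposited count table of 29884 genes. It comprised 20 synthesis genes, 11 genes of breakdown and 11 genes of sphingosine-1-phosphate (S1P) signalling. All 6 libraries came from sciatic nerve of wild type rats with CCI. The 3 untreated libraries had the injury alone, and the 3 conduit libraries had the injury followed by PLLA-PCL-RVC, a nerve conduit that, by the series' description, combines a piezoelectric material with ropivacaine, a local anaesthetic. The study asked how the conduit eases neuropathic pain and aids nerve repair. The labels used here give neither strain, sex and age nor the time after injury, and they do not say whether each library is 1 animal, so p-values reflect the variation among these 6 libraries, part of which may be technical. Nerve without injury was not analysed here.

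Sphingolipid synthesis starts when serine palmitoyltransferase joins serine to palmitoyl-CoA. The product is reduced, acylated by a ceramide synthase and desaturated to ceramide, which then receives a head group. Schwann cells, like oligodendrocytes, add galactose to ceramide, often one with a hydroxylated fatty acid, to make galactosylceramide, and sulphate part of it to sulfatide, the glycolipids for which myelin is known. Lysosomal and other hydrolases take these lipids apart again, ceramidases release sphingosine, and sphingosine kinases turn it into S1P. That lipid signals through a family of G protein-coupled receptors on endothelial cells, lymphocytes, glia and neurons.

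The 250 bases upstream of the annotated start of 5 members are printed because these genes rose together in conduit nerves, because the galactolipid trio is the best known myelin group of the list, and because Degs2 and Sptlc2 hold the EGR word that Ugt8 and Gal3st1 also hold. The sequences are from RefSeq (build GRCr8), 5′ to 3′ on the gene's strand. Capitals mark matches on either strand to GCGNGGGCG (the word bound by EGR factors), ACAANG (a SOX word) or CCAAT. Their positions are chr2:217007168-217007417, minus strand, for Ugt8; chr19:56273481-56273730, minus strand, for Fa2h; chr14:83094135-83094384, plus strand, for Gal3st1; chr6:133377678-133377927, minus strand, for Degs2; and chr6:112762471-112762720, minus strand, for Sptlc2.
Ugt8: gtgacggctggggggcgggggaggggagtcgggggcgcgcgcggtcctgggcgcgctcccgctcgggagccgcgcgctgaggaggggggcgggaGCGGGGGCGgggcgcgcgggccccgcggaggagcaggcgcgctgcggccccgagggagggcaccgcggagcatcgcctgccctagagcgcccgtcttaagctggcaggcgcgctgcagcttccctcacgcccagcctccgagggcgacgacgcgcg
Fa2h: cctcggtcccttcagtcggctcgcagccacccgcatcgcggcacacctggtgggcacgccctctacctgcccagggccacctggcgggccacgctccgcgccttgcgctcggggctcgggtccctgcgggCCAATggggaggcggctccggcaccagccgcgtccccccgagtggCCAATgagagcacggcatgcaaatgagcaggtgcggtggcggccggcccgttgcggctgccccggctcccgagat
Gal3st1: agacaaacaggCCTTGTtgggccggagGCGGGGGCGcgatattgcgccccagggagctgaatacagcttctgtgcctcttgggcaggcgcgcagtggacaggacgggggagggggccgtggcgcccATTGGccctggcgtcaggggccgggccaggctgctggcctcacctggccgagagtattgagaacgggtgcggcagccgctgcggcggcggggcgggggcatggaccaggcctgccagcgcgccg
Degs2: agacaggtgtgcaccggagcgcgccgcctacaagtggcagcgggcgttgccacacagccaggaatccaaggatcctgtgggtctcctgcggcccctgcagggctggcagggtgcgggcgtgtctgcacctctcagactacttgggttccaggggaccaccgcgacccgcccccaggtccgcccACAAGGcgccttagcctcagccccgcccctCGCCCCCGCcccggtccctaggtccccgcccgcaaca
Sptlc2: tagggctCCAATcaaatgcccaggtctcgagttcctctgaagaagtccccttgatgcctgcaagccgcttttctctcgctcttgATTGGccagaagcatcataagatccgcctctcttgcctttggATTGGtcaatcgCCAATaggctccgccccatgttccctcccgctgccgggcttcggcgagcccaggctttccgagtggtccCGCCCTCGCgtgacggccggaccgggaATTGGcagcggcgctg

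The EGR word stood in Ugt8 at 156, in Gal3st1 at 223, in Degs2 at 37 and in Sptlc2 at 43 bases before the start (first base of the match), and the Fa2h window held 2 CCAAT words and no EGR word. Egr2 is known as the EGR factor of myelinating Schwann cells. Among the 36 members found in the promoter table, 5 windows held the EGR word. They were 4 of 16 members called higher in conduit nerves, 0 of 6 called lower, 0 of 11 not called, and Cers1, which had no count. Of all 33469 windows of the same length, 4.29% held it, and of the 8454 windows with at least 60% G and C, 14.9% did. The printed windows contain 60.8% to 81.2% G and C against a median of 51.2% over all windows, and 25 of the 36 members' windows had at least 60%. SOX words were in 13 of the 36 (36.9% of all windows and 20.5% of those with at least 60% G and C), and CCAAT words in 10 (34.0% and 29.0%). Together with flanking bases, part of an EGR match can also belong to a GC box, GGGCGG. That word was in 24 of the 36, in 30.5% of all windows and in 76.7% of those with at least 60% G and C. A match describes letters only and says nothing of binding.

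Library totals were 38401951 to 42225086 counts. CPM are counts scaled to library size, here with TMM factors, and values after ± are SD of 3 libraries unless SE is written. Log2 fold changes are conduit minus untreated from edgeR, with Benjamini-Hochberg adjusted p-values over all 15464 genes tested, called below 0.05. Scaling by library totals instead of TMM moved the median log2 fold change of all genes by -0.39. The values given here are those with TMM. That scaling sets the bulk of genes near 0, so a median near 0 does not favour it over library totals. Myelinating Schwann cell markers summed to 5204 to 11045 CPM in untreated and 74422 to 91395 CPM in conduit libraries (12 of 12 called higher). Macrophage markers summed to 3083 to 3807 and 474 to 865 CPM (12 of 12 lower), and T and NK cell markers to 189 to 278 and 40.7 to 74.8 CPM (9 of 11 lower). Most of the T and NK sum was Cd4 and Cd8a in untreated libraries (150 ± 64.8 and 68.8 ± 40.5 CPM) and Cd4 in conduit libraries (52.9 ± 18.0 CPM). Cd3e was at 2.72 ± 0.605 CPM in untreated libraries. Endothelial markers were at 1035 to 1426 and 639 to 929.8 CPM (4 of 10 lower). Schwann cell lineage markers summed to 1515 to 1573 and 5322 to 7466 CPM (6 of 7 higher), and repair Schwann cell markers to 1294 to 1856 and 153 to 217 CPM (7 of 8 tested lower, 1 higher). Fibroblast and perineurial markers were at 5506 to 10215 and 9378 to 18544 CPM (4 of 8 higher, 1 lower), and proliferation genes at 245 to 328 and 13.1 to 22.9 CPM (8 of 8 lower). Muscle markers reached 10619 CPM in untreated replicate 1 and at most 78.0 elsewhere, and adipocyte markers 2273 CPM in conduit replicate 3 and at most 917 elsewhere. Among all genes tested, 24.0% were called higher and 26.2% lower. The part of these markers in the results was not tested. In bulk nerve, fewer cells of a type and less RNA per cell cannot be told apart. The 5 batch numbers of the labels are never shared by both groups, so batch and treatment cannot be told apart either.

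Synthesis genes were mostly higher in conduit nerves, breakdown genes were mixed, and S1P genes that were called were mostly lower. Of the 42 genes 39 had enough counts to be tested, and 26 of these (66.7%) were called, 18 higher (46.2%) and 8 lower (20.5%) in conduit nerves. Over all genes tested, 50.2% were called, 24.0% higher and 26.2% lower. The median log2 fold change was 0.26 over the 39 genes and -0.04 over all genes tested. At least 2-fold changes were called for 12 higher and 2 lower members, a size that 29.8% of all genes reached. In the synthesis arm 13 of 17 tested genes rose and 3 fell (median 0.98). In the breakdown arm 4 of 11 rose and 1 fell (median 0.09), and in the S1P arm 1 of 11 rose and 4 fell (median -0.50). The share called was 94.1% in the synthesis arm and 45.5% in each of the others, close to the 50.2% of all genes. With scaling by library totals, 13 of the 39 were higher and 12 lower, beside 2291 higher and 6554 lower over all genes (3711 and 4049 with TMM). The 3 arms were not tested against each other. Without conduit replicate 1 or 2, the number lower among the 39 was 4 or 5. The single lower call of the breakdown arm was absent without untreated replicate 1 or 2 or any 1 conduit library, and the S1P arm had 2 lower calls without untreated replicate 3 or conduit replicate 1 and 2 higher calls without untreated replicate 3.

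**Figure D1:**
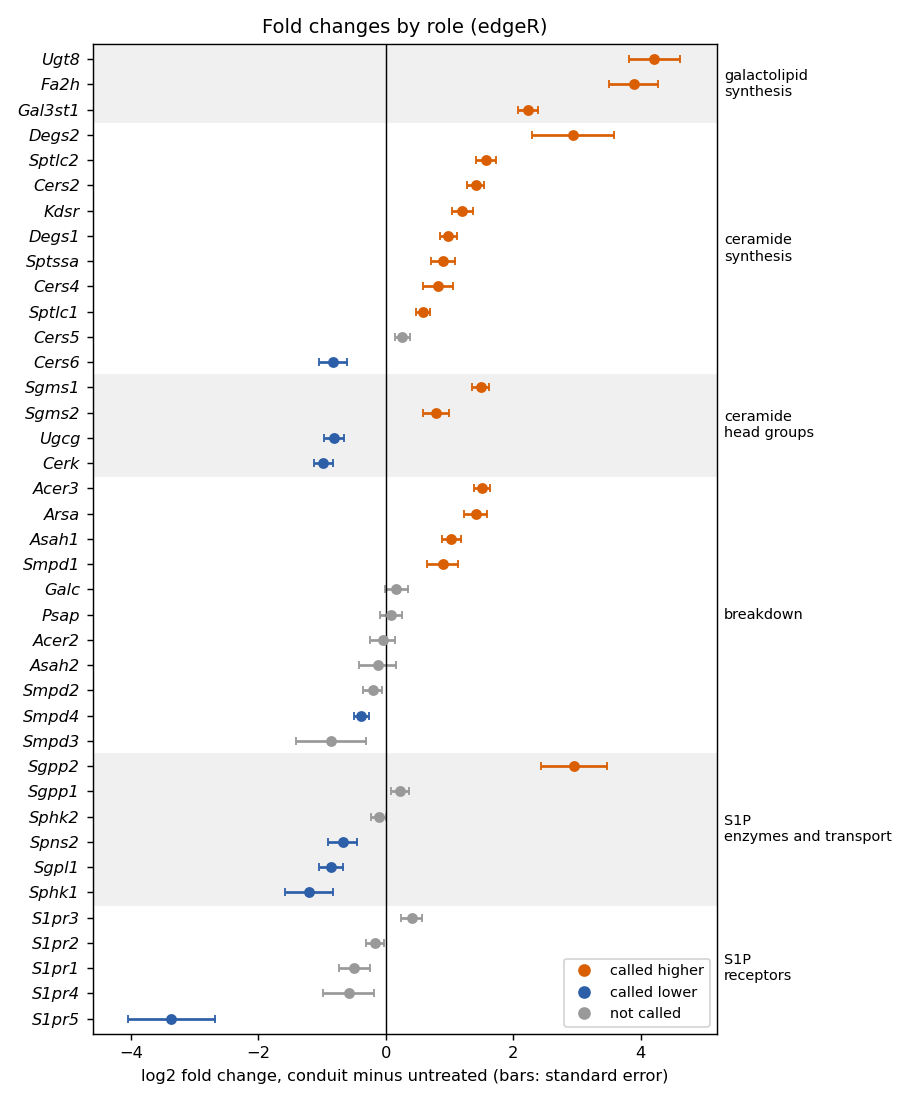
Log2 fold change (x axis, conduit minus untreated, bars are the standard error) of the 39 tested genes, in rows grouped by role; colour gives the edgeR call. Galactolipid and most ceramide synthesis genes lie right of 0, breakdown genes lie on both sides, and 4 of 5 S1P receptors were not called.

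The 3 galactolipid genes rose in conduit nerves, led by the pair that build the hydroxylated galactosylceramide of myelin. Ugt8, the galactosyltransferase that turns ceramide into galactosylceramide, was at 109, 59.0 and 170.3 CPM in untreated replicates 1, 2 and 3 and at 2239, 2211 and 1818 CPM in the conduit replicates. Its lowest conduit library was far higher than its highest untreated library. The mean rose 18.5-fold (log2 fold change 4.21 ± 0.40 SE, adjusted p = 0.000199). Fa2h, the hydroxylase that supplies hydroxylated fatty acids, was at 63.2, 30.7 and 85.4 CPM in untreated and 906, 998 and 754 CPM in conduit libraries (log2 fold change 3.89 ± 0.38 SE, adjusted p = 0.000244). In both genes untreated replicate 2 was lowest and untreated replicate 3 highest, the order also seen for the summed myelinating Schwann cell markers. Gal3st1, the sulfotransferase that makes sulfatide, differed less. It was at 12.6, 12.9 and 13.5 CPM in untreated libraries, with almost no spread, and at 72.1, 59.5 and 51.0 CPM in conduit libraries (log2 fold change 2.23 ± 0.15 SE, adjusted p = 9.58e-05). The untreated and conduit libraries did not overlap in any of the 3, which is true of 61.7% of all genes tested. The 3 calls held under all 12 alternatives of processing and left-out libraries.

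Relative to a gene of the same cell lineage in the same library, a comparison that library scaling does not touch, the trio was also higher. FPKM here means fragment counts scaled by gene length and library total. Against Sox10, a transcription factor of the whole Schwann cell lineage, Ugt8 FPKM went from 59.8, 31.9 and 91.8% in untreated to 459.6, 510.4 and 451% in conduit libraries. Fa2h went from 51.0, 24.4 and 67.6% to 273, 338 and 275%, and Gal3st1 from 2.48, 2.49 and 2.60% to 5.29, 4.91 and 4.53%. All 3 conduit libraries exceeded all untreated ones in each of the trio. Cers2, the ceramide synthase for very long acyl chains, was at 114, 126 and 107% of Sox10 in untreated and 119, 137 and 130.4% in conduit libraries, and here the groups overlapped. These patterns hold for Sox10 only. The 7 lineage markers had log2 fold changes from 0.37 to 2.62, with Sox10 at 1.26, Cers2 at 1.41 and Gal3st1 at 2.23. Ratios of Cers2 and the trio to the other lineage markers were not computed. Exact two-sided permutation tests gave p = 0.1, the smallest that 3 against 3 libraries allow, for each non-overlapping ratio, and p = 0.2 for Cers2 over Sox10. No ratio of the 14 computed can pass 0.05 in this design.

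**Figure D2:**
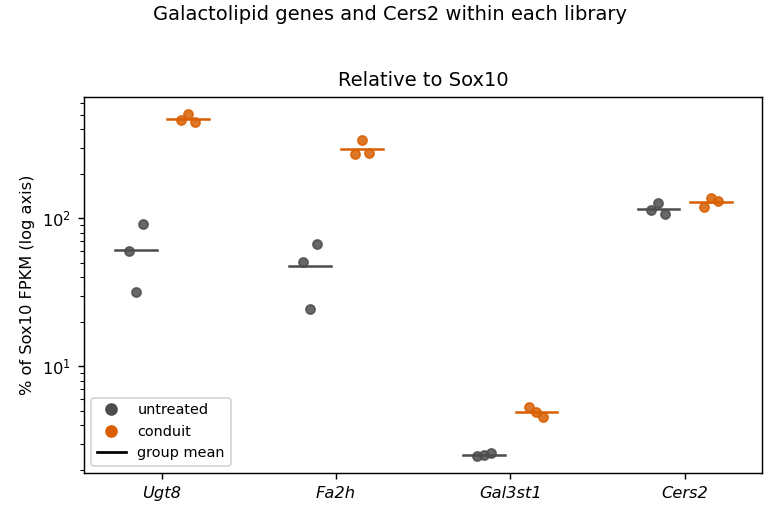
FPKM of Ugt8, Fa2h, Gal3st1 and Cers2 (x axis) as a percentage of Sox10 FPKM (y axis, log scale) in each library; points are libraries and lines group means. The galactolipid genes are higher in all 3 conduit libraries than in the untreated ones, and Cers2 overlaps between groups.

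Ceramide synthesis genes were mostly higher, from the first step to the last. Sptlc2, a catalytic subunit of serine palmitoyltransferase, went from 70.4, 100.1 and 83.0 CPM in untreated to 261, 253 and 242 CPM in conduit libraries (log2 fold change 1.57 ± 0.16 SE, adjusted p = 0.000271), with no overlap. Its partner subunit Sptlc1 rose less (41.7 ± 2.18 to 62.3 ± 3.49 CPM, 0.58 ± 0.11), as did the small subunit Sptssa (68.7 ± 15.3 to 127 ± 18.3 CPM, 0.89 ± 0.19). With scaling by library totals Sptlc1 and Sptssa did not pass (adjusted p = 0.155 and 0.0668). Kdsr, the reductase of the next step, was at 14.3, 17.2 and 21.8 CPM in untreated and 42.4, 42.1 and 38.2 CPM in conduit libraries (log2 fold change 1.20 ± 0.17 SE, adjusted p = 0.00112). Every conduit value of Kdsr lay above the untreated ones, and the conduit values lay close together. Degs1, the desaturase that introduces the double bond of ceramide, was at 145, 147 and 139 CPM and 287, 311 and 252 CPM in the untreated and conduit replicates (log2 fold change 0.98 ± 0.13 SE, adjusted p = 0.0009). Its paralog Degs2, which can also hydroxylate, was much scarcer, at 2.36, 0.444 and 2.65 CPM in untreated and 16.3, 17.9 and 7.44 CPM in conduit libraries (log2 fold change 2.94 ± 0.64 SE, adjusted p = 0.00757). Untreated replicate 2 held the lowest value, as it did for Ugt8 and Fa2h, and conduit replicate 3 was well below the other conduit libraries. By FPKM, Degs2 made up 2.28 ± 1.51% of the pair in untreated and 8.06 ± 2.53% in conduit nerves.

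The ceramide synthases differ in the acyl chain they attach, and they did not move together. Cers2 was at 164, 185 and 158 CPM in untreated and 461, 469 and 416 CPM in conduit libraries (log2 fold change 1.41 ± 0.13 SE, adjusted p = 0.000209). The groups stood well apart, with a narrow spread in each. Cers6, which prefers shorter (palmitoyl) chains, fell from 34.5, 35.8 and 38.2 CPM to 16.1, 16.9 and 27.9 CPM (log2 fold change -0.83 ± 0.22 SE, adjusted p = 0.0166), and conduit replicate 3 lay nearest to the untreated libraries. Leaving out conduit replicate 1 or 2 ended the call (adjusted p = 0.0547 and 0.0635). Cers4 rose (21.3 ± 7.19 CPM in untreated, 37.6 ± 4.44 CPM in conduit nerves, log2 fold change 0.82 ± 0.24 SE, adjusted p = 0.0246), but not with library totals (0.197) or when untreated replicates 1 and 3 and conduit replicates 2 and 3 were left out in turn (0.0505, 0.0729, 0.072 and 0.0659). Cers5 was not called (94.8 ± 2.50 and 113 ± 10.1 CPM, log2 fold change 0.26 ± 0.12 SE, adjusted p = 0.111), and its sign turned with library totals (-0.13). Per length, Cers2 held 58.3, 60.8 and 56.9% of the summed ceramide synthase FPKM in the untreated libraries and 77.0, 76.5 and 76.2% in the conduit libraries. The share of Cers5 went from 33.3 ± 2.38% to 19.5 ± 0.593% and that of Cers6 from 5.05 ± 0.421% to 1.41 ± 0.554%. These shares are descriptions, not tests. Cers3, a synthase known from skin and testis, had at most 1 count per library, and Sptlc3 and Cers1 had 0 counts in all 6 libraries. A count of 0 allows up to 3 counts, or 0.0606 to 0.0848 CPM per library, for counting error only. In the RefSeq annotation Cers1 overlaps Gdf1, which was also listed at 0, and Upf1; whether reads were lost to that overlap was not tested.

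The enzymes that add a head group to ceramide divided by product. Sgms1, a sphingomyelin synthase of the Golgi, was at 41.9, 46.7 and 45.4 CPM in untreated and 129.9, 137 and 108 CPM in conduit libraries (log2 fold change 1.49 ± 0.13 SE, adjusted p = 0.000172), with a clear gap between the groups. Sgms2, the other synthase, rose less, from 36.2 ± 8.32 CPM in untreated to 62.3 ± 11.0 CPM in conduit nerves (log2 fold change 0.78 ± 0.20 SE, adjusted p = 0.0155). That call was lost with library totals (0.154) and on leaving out untreated replicate 3 (0.0502), conduit replicate 1 (0.0576) or conduit replicate 2 (0.059). Ugcg, which adds glucose and so opens the route to gangliosides, fell from 60.2, 57.8 and 63.6 CPM to 26.9, 36.0 and 40.3 CPM (log2 fold change -0.81 ± 0.16 SE, adjusted p = 0.00533). The untreated values of Ugcg lay close together and all conduit values were below them. Cerk, ceramide kinase, fell from 149.8, 132 and 119 CPM to 76.4, 59.5 and 66.5 CPM (log2 fold change -0.98 ± 0.15 SE, adjusted p = 0.0015), again without overlap. Galactose and glucose transfer compete for ceramide, and the balance of their transcripts differed between groups. Ugt8 FPKM was 33.2, 19.1 and 52.7 in untreated and 531, 515 and 449 in conduit libraries. Ugcg FPKM was 17.9, 18.2 and 19.2 and 6.22, 8.19 and 9.74. Ugt8 thus held 64.9, 51.1 and 73.3% of the pair in the untreated libraries and 98.8, 98.4 and 97.9% in the conduit libraries. The untreated share varied more between libraries than the conduit share, and untreated replicate 2 was near parity.

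**Figure D3:**
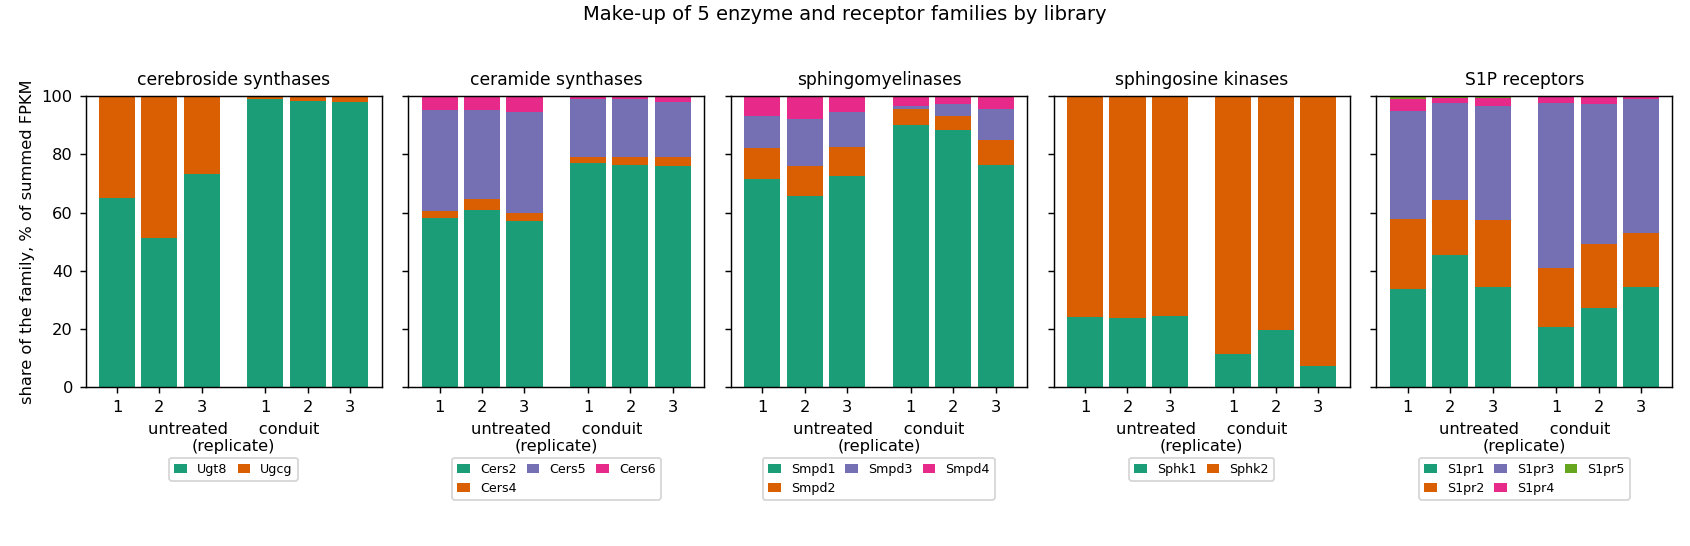
Share of each member in the summed FPKM of its family (y axis, percent) in the 6 libraries (x axis, 3 untreated and 3 conduit), for Ugt8 and Ugcg, the ceramide synthases, sphingomyelinases, sphingosine kinases and S1P receptors; Cers1 and Cers3, at or near 0, are left out. In conduit libraries Ugt8 holds 98.8, 98.4 and 97.9% of its pair, Cers2 holds 77.0, 76.5 and 76.2% of the ceramide synthases and S1pr3 56.5, 47.9 and 46.0% of the receptors.

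In the breakdown arm 4 of 11 genes rose (36.4% against 24.0% of all genes tested), among them both ceramidases that lead their family by FPKM. Asah1, the acid ceramidase of the lysosome, was at 111, 150.4 and 127 CPM in untreated and 269, 266 and 254 CPM in conduit libraries (log2 fold change 1.02 ± 0.15 SE, adjusted p = 0.00124). Acer3, an alkaline ceramidase, was at 39.1, 45.0 and 43.8 CPM and 130.4, 123 and 111 CPM (log2 fold change 1.51 ± 0.12 SE, adjusted p = 0.000136). In both, all conduit libraries stood above all untreated ones. Acer2 (-0.05 ± 0.20) and Asah2 (-0.13 ± 0.30), the other ceramidases, were not called (adjusted p = 0.857 and 0.736). The sign of Acer2 turned without untreated replicate 1 and that of both without conduit replicate 1. Arsa, arylsulfatase A, which removes the sulphate that Gal3st1 adds, was at 49.6, 36.9 and 55.8 CPM in untreated and 116, 142 and 119.6 CPM in conduit libraries (log2 fold change 1.41 ± 0.18 SE, adjusted p = 0.000723). The groups did not overlap. Galc, the lysosomal enzyme that cleaves galactosylceramide, was at 41.8, 59.9 and 40.7 CPM and 52.2, 59.2 and 48.4 CPM, overlapped between groups and was not called (log2 fold change 0.17 ± 0.18 SE, adjusted p = 0.471). Without untreated replicate 2 it was at 0.37 (adjusted p = 0.0492), and with library totals at -0.23. The FPKM of Ugt8 was 4.51 times that of Galc on average in untreated and 68.4 times in conduit nerves. Psap, the precursor of the saposins that help these hydrolases, was the most abundant gene of the set in untreated nerves, at 2310.3, 1819 and 2249.6 CPM, and stood at 2006, 2609 and 2157 CPM in conduit libraries (log2 fold change 0.09 ± 0.17 SE, adjusted p = 0.704). Its groups overlapped, and its sign turned with library totals (-0.30) and without untreated replicate 2 or conduit replicate 2.

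The sphingomyelinases, which release ceramide from sphingomyelin, went both ways. Smpd1, the acid enzyme of the lysosome, was at 119, 99.3 and 132 CPM in untreated and 241, 263 and 143 CPM in conduit libraries (log2 fold change 0.89 ± 0.24 SE, adjusted p = 0.019), with conduit replicate 3 only just above the untreated range. Its call was lost with library totals (0.094) and on leaving out untreated replicate 2 (0.0529), conduit replicate 1 (0.0601) or conduit replicate 2 (0.0681). Smpd3, a neutral enzyme, was at 43.4, 57.4 and 51.1 CPM in untreated libraries and at 7.34, 29.0 and 47.3 CPM in the conduit libraries, a wide spread that reached into the untreated range (log2 fold change -0.86 ± 0.55 SE, adjusted p = 0.23). Without conduit replicate 1 it was at -0.39, and without conduit replicate 3 at -1.44. Smpd4 was called lower by a small margin (28.8 ± 2.35 CPM in untreated, 22.0 ± 0.820 CPM in conduit nerves, log2 fold change -0.39 ± 0.12 SE, adjusted p = 0.0289). Leaving out untreated replicate 1 or 2 or any 1 conduit library ended that call (adjusted p = 0.061, 0.0506, 0.0873, 0.12 and 0.13), as did no low-count filter (0.0525) and the replicate number as a block (0.0508). Smpd2 was not called (log2 fold change -0.21 ± 0.15 SE, adjusted p = 0.283) except with library totals (0.013). By FPKM, Smpd1 held 69.9 ± 3.67% of the 4 genes in untreated and 84.9 ± 7.43% in conduit nerves.

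Of the 6 genes that make, export and destroy S1P, 3 fell and 1 rose (66.7% called against 50.2% of all genes tested). Sphk1, a sphingosine kinase induced by growth factors and inflammatory signals, was at 15.6, 13.6 and 17.1 CPM in untreated and 5.61, 10.8 and 3.61 CPM in conduit libraries (log2 fold change -1.21 ± 0.37 SE, adjusted p = 0.0306). All 3 conduit values were lower, with a wide range among them. The call depended on 4 libraries: the adjusted p was 0.0593 or 0.0767 when untreated replicate 1 or 3 was left out and 0.106 or 0.06 when conduit replicate 1 or 3 was. Sphk2, the other kinase, was at 45.9, 40.2 and 48.9 CPM and 41.2, 40.8 and 43.0 CPM, with overlap (log2 fold change -0.11 ± 0.12 SE, adjusted p = 0.465), and was called lower only with library totals (0.00933). Sphk1 made up 24.0, 23.9 and 24.5% of the kinase FPKM in untreated libraries and 11.2, 19.8 and 7.26% in conduit libraries. In the RefSeq annotation a noncoding RNA, Khps1a, overlaps Sphk1, and 18 of the 42 genes overlap some other gene. Whether counting used strand is not given in the sources used here, so overlapping genes could not be separated. Sgpl1, the lyase that cleaves S1P for good, fell from 115, 136 and 121 CPM to 54.2, 64.1 and 86.5 CPM (log2 fold change -0.86 ± 0.19 SE, adjusted p = 0.00718). It was lower in every conduit library, most in replicate 1. Spns2, an S1P exporter of endothelial cells, was at 36.7, 53.0 and 38.1 CPM in untreated and 19.8, 27.1 and 32.9 CPM in conduit libraries (log2 fold change -0.68 ± 0.22 SE, adjusted p = 0.0381). Endothelial markers were lower in sum in the same libraries, and their part was not tested. The call of Spns2 needed each of untreated replicates 2 and 3 and conduit replicates 1 and 2, with an adjusted p of 0.0981, 0.0531, 0.118 and 0.0991 when each was left out. Sgpp2, an S1P phosphatase, rose from 0.216, 0.0808 and 0.184 CPM to 1.57, 0.791 and 1.41 CPM (log2 fold change 2.96 ± 0.52 SE, adjusted p = 0.0029), a change at very low level. It had 10, 4 and 8 counts in untreated and 57, 28 and 54 in conduit libraries. The low-count filter thus kept it through the conduit libraries, where it was higher. Without that filter the edgeR adjusted p was 0.00339. The abundant phosphatase Sgpp1 was not called (44.7 ± 3.84 and 52.0 ± 6.55 CPM, log2 fold change 0.22 ± 0.14 SE, adjusted p = 0.217), and its sign turned with library totals.

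Of the 5 S1P receptors 1 was called (20% against 50.2% of all genes tested), the scarce S1pr5, known from oligodendrocytes and natural killer cells. S1pr5 was at 2.16, 1.27 and 1.79 CPM in untreated and 0.165, 0.311 and 0.0262 CPM in conduit libraries (log2 fold change -3.37 ± 0.68 SE, adjusted p = 0.00543), or at -4.13 without conduit replicate 2 and -2.82 without conduit replicate 3. With 100, 63 and 78 counts in untreated and 6, 11 and 1 in conduit libraries, it passed the low-count filter through the untreated libraries. Without that filter the edgeR adjusted p was 0.00549. T and NK cell markers were lower in the same libraries (median log2 fold change -2.41), and their part in the result was not tested. S1pr1, the receptor of endothelial cells and of lymphocyte exit from lymphoid organs, was at 66.1, 101 and 87.0 CPM and 44.2, 54.9 and 80.7 CPM (log2 fold change -0.50 ± 0.25 SE, adjusted p = 0.136). Conduit replicate 3 lay within the untreated range. The value moved with single libraries: it was -0.30 without conduit replicate 1 (adjusted p = 0.364) and -0.35 without untreated replicate 2 (0.312). S1pr1 was called lower without conduit replicate 3 (-0.73, adjusted p = 0.0376) and with library totals (0.027). Beside the endothelial markers, S1pr1 FPKM was 30.7, 35.4 and 29.9% of Pecam1 in untreated and 42.4, 41.2 and 46.0% in conduit libraries, but 62.0, 58.7 and 64.4% and 46.7, 52.8 and 46.5% of Cdh5, so the direction depended on the marker. S1pr3, a receptor of vascular smooth muscle, neurons and glia, was at 73.3, 74.8 and 100.1 CPM in untreated and 122, 97.3 and 109 CPM in conduit libraries and was not called (log2 fold change 0.40 ± 0.17 SE, adjusted p = 0.0777). Conduit replicate 2 lay below untreated replicate 3. It was called higher without untreated replicate 3 (0.57, adjusted p = 0.0222) and by DESeq2 (0.0456), and was at 0.02 with library totals. S1pr2 was at 34.9 ± 6.01 and 31.1 ± 0.373 CPM (log2 fold change -0.17 ± 0.14 SE, adjusted p = 0.363, or 0.0124 with library totals). S1pr4, a receptor of blood cells, was at 3.74 ± 1.15 and 2.49 ± 0.980 CPM (log2 fold change -0.59 ± 0.40 SE, adjusted p = 0.26). Summed receptor FPKM, scaled by library totals and not by TMM, was 66.3 ± 9.01 in untreated and 49.1 ± 5.25 in conduit nerves. With that scaling the median log2 fold change of all genes moved by -0.39, so the groups are not compared by this sum. Of that sum S1pr3 held 37.1, 33.3 and 39.1% in untreated libraries and 56.5, 47.9 and 46.0% in conduit libraries, and S1pr1 held 33.8, 45.3 and 34.4% and 20.6, 27.4 and 34.6%.

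**Figure D4:**
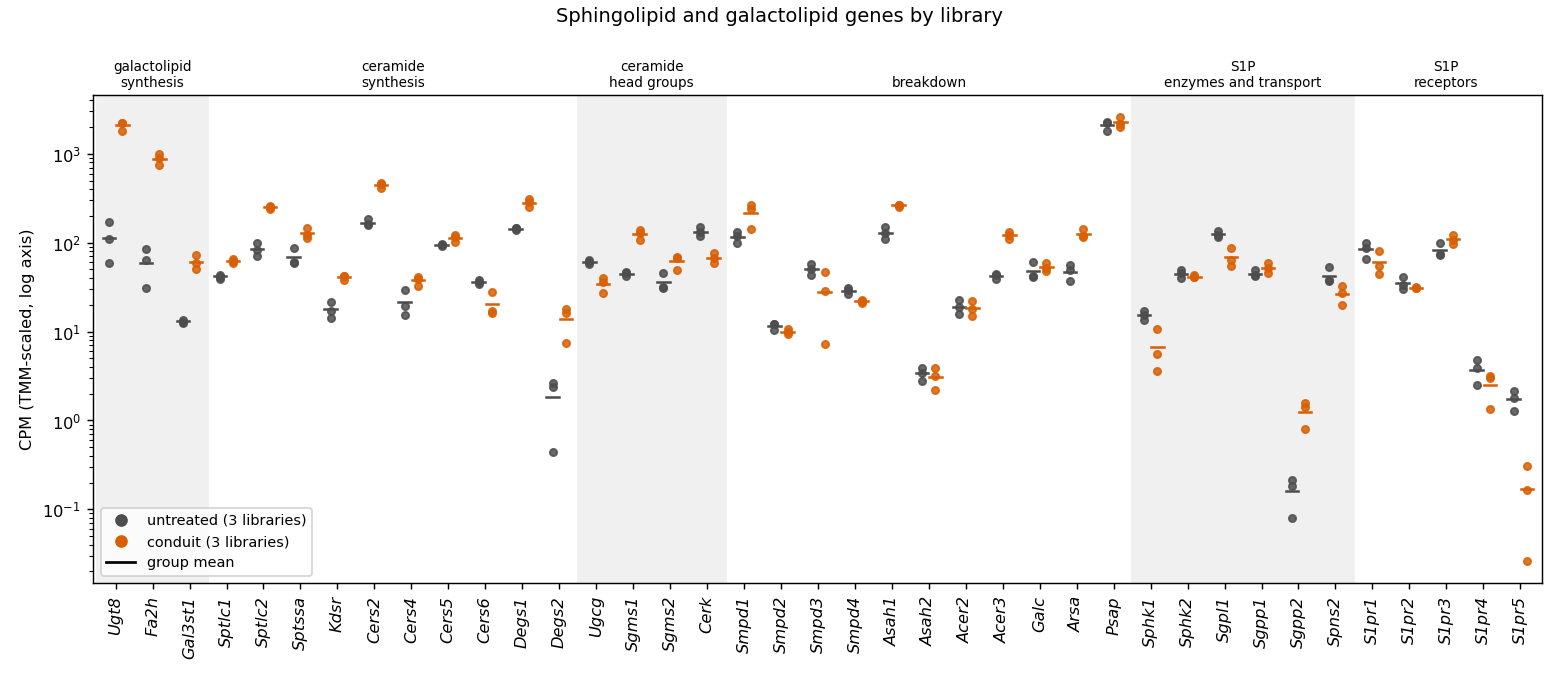
CPM of the 39 tested genes in each library (y axis, log scale), grouped by role; points are libraries and short lines group means. Ugt8 and Fa2h show the widest gap between groups among the abundant genes, while S1P receptors other than S1pr5 overlap between groups.

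Further genes of the pathway, from lists outside the 42, were also mostly higher in synthesis. The lists were chosen with earlier results of these data known, so their shares are descriptions and no independent support. Of 18 tested genes of fatty acid elongation, ceramide transfer and regulation of the first step, 10 rose and 2 fell (median 0.68), or 55.6% higher against 24.0% of all genes. Elovl7 (4.13 ± 0.33) and Elovl6 (3.83 ± 0.26), fatty acid elongases, and Tecr (2.00 ± 0.16), the last reductase of the elongation cycle, had the smallest adjusted p (0.000127, 8.56e-05 and 0.00013). Elovl1, the elongase for very long chains that feeds Cers2, went from 126 ± 4.46 to 312 ± 37.5 CPM (1.31 ± 0.14). Ormdl1, which restrains serine palmitoyltransferase, and Plekha8, a glycolipid transfer protein, were the 2 that fell (-0.97 ± 0.19 and -0.53 ± 0.17). Ormdl1 was scarce (10.1 ± 1.72 CPM in untreated nerves). Its more abundant paralogs Ormdl2 (-0.004 ± 0.16) and Ormdl3 (0.11 ± 0.19) were not called (adjusted p = 0.986 and 0.655). Of 9 ganglioside and globoside synthesis genes, downstream of Ugcg, 0 rose and 4 fell (median -0.55), or 44.4% lower against 26.2% of all genes. The 4 were B3galnt1 (-1.83 ± 0.13), St8sia1 (-3.15 ± 0.51), B4galt5 (-0.66 ± 0.12) and B4galt6 (-0.84 ± 0.22). St8sia1 changed at a very low level, from 1.14 ± 0.285 CPM in untreated to 0.126 ± 0.0727 CPM in conduit nerves. It passed the low-count filter through the untreated libraries. Among 15 tested genes of lysosomal and other breakdown, 2 rose and 4 fell (median -0.06), or 26.7% lower, close to the 26.2% of all genes. Smpdl3a, a phosphodiesterase related to Smpd1, fell from 126 ± 10.4 to 26.3 ± 4.37 CPM (-2.27 ± 0.16), and Aldh3a2, which oxidises the fatty aldehyde left by Sgpl1, rose (1.03 ± 0.12). Macrophage markers fell in the same libraries (median -2.67), and their part in the falls was not tested. Of 6 tested genes that handle S1P otherwise, 2 rose and 3 fell (median -0.01), or 5 of 6 called against 50.2% of all genes. They included Plpp3, a lipid phosphatase that degrades S1P outside the cell (1.24 ± 0.24), Plpp1 (-0.44 ± 0.11) and Cib1, which brings Sphk1 to the membrane (-1.04 ± 0.17).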

How the data were processed

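RNA of 3 untreated and 3 conduit libraries from rat sciatic nerve with CCI was sequenced after mRNA enrichment, per the labels' protocols. The submitters' processing notes name fastp, HISAT2, HTSeq, DESeq2 and the build mRatBN7.2; annotation and strand setting are not given in the sources used here. The authors deposited raw counts per gene for 29884 genes, of which 7834 had no count, and deposited FPKM per library.

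Counts were tested with edgeR 4.0.16 in R 4.3.3 (TMM, filterByExpr at a minimum count of 10, quasi-likelihood F test, group only), with Benjamini-Hochberg adjustment over all 15464 genes kept. The standard error was taken as |log2 fold change|/√F. FPKM, which does not depend on TMM, served only to compare levels between genes, as shares and ratios. Ratios were compared by exact permutation. The fit was checked on simulated data. The alternatives were RLE scaling, library totals, no filter, a filter of 5 CPM in 3 libraries, DESeq2 1.42.0, the replicate number as a block, and each library left out in turn.

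The members and lists were chosen with earlier results of these data known. Values per library are given for the galactolipid genes, for the 3 members of each other role with the smallest adjusted p among those called, and for single enzymes of a step and both sphingosine kinases. Other members with values per library (Cers6, Degs2, Galc, Psap, Smpd1, Smpd3, S1pr1 and S1pr3) were chosen after their values were seen, as were Elovl1, Ormdl2, Ormdl3 and the genes named to complete a count. Promoter windows came from RefSeq (GRCr8), which matched 36 of the 42 by symbol (Asah1, Smpd3, Arsa, Psap, Ugcg and Spns2 had no entry). 2 genes were left out of the pathway and marker lists and are not reported here. Depth was similar in all libraries, and a count of 0 allows up to 3 counts.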

Additional observations from a re-analysis of the deposited data

How the results depend on the processing

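Of the 26 calls, 17 held in every one of the 12 alternatives that tested them, 13 higher and 4 lower. With library totals alone, 2 breakdown and 7 S1P genes were lower, 2291 genes in all were higher and 6554 lower, and Cers5 (-0.13), Galc (-0.23), Psap (-0.30) and Sgpp1 (-0.17) changed sign. This follows from the shift of the median of all genes by -0.39. Without a low-count filter 0 breakdown genes were lower. With the 5 CPM filter 0 S1P genes were higher, since Sgpp2 was not tested, and by DESeq2 2 were. Without 1 library, 4 to 7 members, 0 to 1 breakdown and 2 to 4 S1P genes were lower and 1 to 2 S1P genes higher, and log2 fold changes ranged over -0.17 to 0.092 for Acer2, -0.29 to 0.073 for Asah2 and -0.013 to 0.19 for Psap. Shares by CPM, which weights long genes more, put Cers2 at 52.5 and 72.3% of its family in untreated and conduit libraries, Smpd1 at 56.0 and 77.1%, untreated Sphk1 at 25.5% and untreated S1pr3 at 39.8%. The cause of the other changes was not tested.

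The replicate numbers do not pair the libraries: deviations of same-numbered libraries correlated at 0.14, -0.03 and 0.06 across genes, and not every library correlated best with its own number. With the replicate number as a block 18 members were higher and 7 lower, 0 of them in the breakdown arm, and 7514 genes were called against 7760. In depth, S1pr5 and Sgpp2 rest on few counts, as does Degs2 in untreated replicate 2 (22 counts).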

Other observations

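Within the conduit group the libraries were not ordered alike across genes. Of the 18 members called higher, 15 had their lowest conduit value in replicate 3, and 1 had its highest there. Of the 8 called lower, 4 (Ugcg, Cers6, Sgpl1 and Spns2) had their lowest conduit value in replicate 1 and their highest in replicate 3. S1pr1, Smpd3, Asah2 and Acer2, which were not called, were placed alike, as was Cers4, which was called higher. Among the marker lists that placement was seen for 11 of 12 macrophage, 7 of 7 adipocyte, 5 of 10 endothelial, 5 of 8 fibroblast and perineurial, 2 of 11 T and NK cell and 0 of 12 myelinating Schwann cell genes. Of the myelinating Schwann cell genes, 10 of 12 had their lowest conduit value in replicate 3. These orders were described after the values were seen and were not tested.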
